A study of Homo sapiens with 4 samples.

Results

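The sodium pump genes ATP1B1, ATP1B2, ATP1B3 and FXYD5 and the noncoding gene ATP1A1OS were followed in RNA sequencing of A549, a widely used cell line from a human lung adenocarcinoma. These 5 genes, of 34608 genes in the files, were picked by gene symbol with earlier results of these data known. Their p-values are thus not those of an unselected set. They hold 31 of the 119207 transcript sequences listed. The dex group had 2 libraries from cells given 100 nM dexamethasone, a synthetic glucocorticoid, and the etoh group had 2 libraries from cells given 0.02% ethanol as vehicle, both for 3 h. A549 cells are unmodified apart from the treatment, so far as the labels say, and they leave unsaid whether libraries are separate cultures. A p-value here therefore reflects library-to-library spread alone, which may be technical. The series is about genomic binding sites of the glucocorticoid receptor, and the RNA libraries show which transcripts differ once hormone is given.

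The sodium pump, or Na,K-ATPase, uses ATP to move sodium out of the cell and potassium in. Its catalytic alpha subunit leaves the endoplasmic reticulum only with a glycosylated beta subunit, encoded by ATP1B1, ATP1B2 or ATP1B3, and a small FXYD protein can join the complex and tune its transport. In alveolar epithelium the pump drives the removal of fluid from the air space, and glucocorticoids and mineralocorticoids are known to act on it. ATP1A1OS is a noncoding gene annotated as a processed transcript.

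ATP1B1 fell and ATP1A1OS rose after 3 h of dexamethasone. ATP1B3, the other beta gene with many reads, did not pass the test of dex against etoh. FXYD5 passed by a narrow margin, and ATP1B2 had too few reads to test. Levels below are CPM, counts per 1000000 aligned reads of the library, summed over a gene's transcripts, and group values are means ± SD over n = 2 libraries. A fold change is log2 of dex over etoh with its standard error (SE), and a gene is called where edgeR's quasi-likelihood test gave a Benjamini-Hochberg adjusted p below 0.05. Of 14777 tested genes, 1684 (11.4%) were called, 6.98% higher and 4.42% lower in dex. DESeq2 called 999, and edgeR called 1111 without etoh replicate 1. Groups of 2 libraries cannot give an exact permutation p below 0.333, so no such test is given for single values.

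The libraries held 9764159 to 11887526 aligned reads, and 17.2% to 18.7% of the reads of each library were listed as unaligned. The treatment check was clear: FKBP5, TSC22D3 and PER1 together summed to 464.6 to 481 CPM in dex and 34.9 to 35.6 CPM in etoh. The 5 epithelial markers KRT8, KRT18, KRT7, EPCAM and CDH1 were all detected and summed to 7345 to 8506 CPM in dex and 4229 to 4903 CPM in etoh. The keratins carried that difference, whereas EPCAM had 8.34 and 8.53 CPM in dex against 8.50 and 11.3 in etoh, and CDH1 had 37.3 and 35.6 against 32.6 and 34.0. The 4 leucocyte markers summed to at most 3.36 CPM and the 2 endothelial markers found to at most 0.509 CPM in any library. The 4 fibroblast markers summed to 17.2 to 22.1 CPM in dex and 11.6 to 16.5 CPM in etoh. Nearly all of that was COL1A1, and LUM went the other way, with 10 reads in dex and 23 in etoh. CD3E, VWF and COL1A2 were at 0 throughout. The 5 muscle and nerve markers, mostly SNAP25 reads, summed to 20.7 to 22.6 CPM in dex and 32.6 to 33.1 CPM in etoh. GFAP went the other way, with 20 reads in dex and 7 in etoh, as did DES with 2 and 0. RBFOX3 had 34 reads in dex and 32 in etoh. The part of these shifts in the results below was not tested, and in bulk RNA fewer cells of a type and less RNA per cell cannot be told apart.

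**Figure D1:**
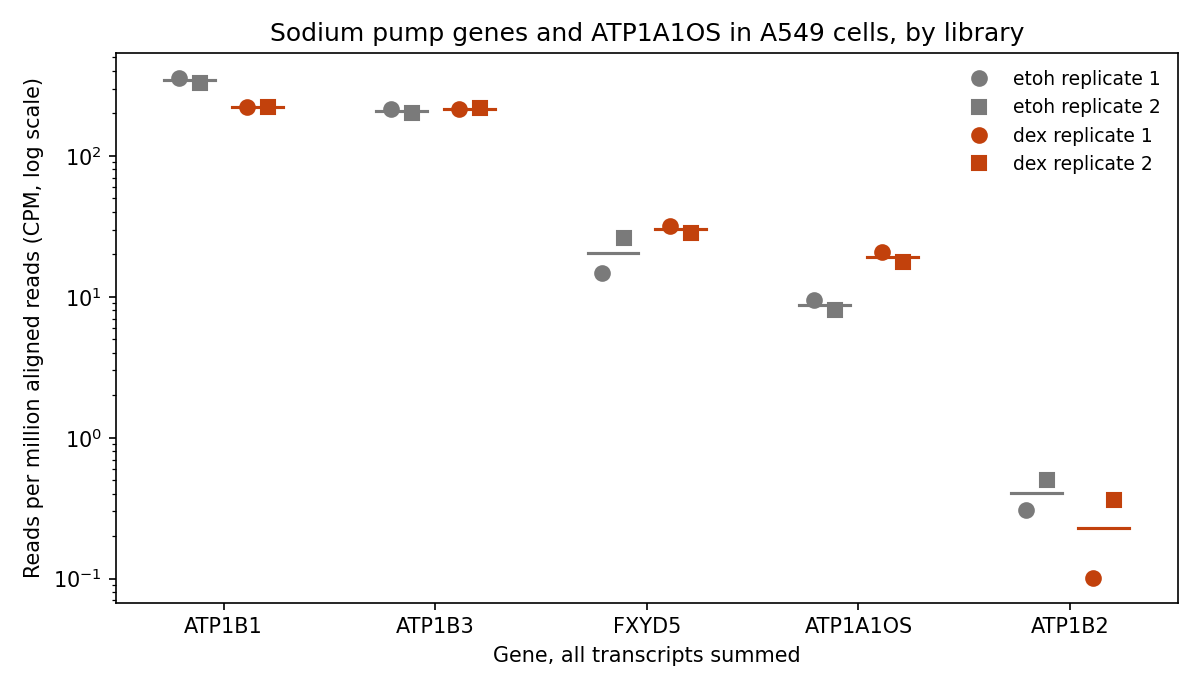
CPM (log axis) of the 5 genes in each library, with the group mean as a line (grey, etoh; orange, dex; circles, replicate 1; squares, replicate 2). The dex points of ATP1B1 lie below both etoh points, those of ATP1A1OS lie above, and etoh replicate 1 is the lowest FXYD5 value.

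ATP1B1, which encodes the beta-1 subunit that folds and carries the alpha subunit to the plasma membrane, lies in GRCh38 on chromosome 1 from 169105697 to 169132722, plus strand. The 250 bases before its RefSeq start site are shown first because ATP1B1 and its paralogue ATP1B3 differ in response. Capitals mark the GC box GGGCGG on either strand, a site of Sp1-type factors.
ATP1B1 promoter, GRCh38 chr1:169106440-169106689, plus strand: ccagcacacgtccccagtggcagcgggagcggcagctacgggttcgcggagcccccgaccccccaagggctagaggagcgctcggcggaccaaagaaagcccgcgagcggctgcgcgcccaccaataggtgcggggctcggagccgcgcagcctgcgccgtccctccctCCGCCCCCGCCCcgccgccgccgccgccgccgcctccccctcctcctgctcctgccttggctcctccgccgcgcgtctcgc
ATP1B3 promoter, GRCh38 chr3:141876393-141876642, plus strand: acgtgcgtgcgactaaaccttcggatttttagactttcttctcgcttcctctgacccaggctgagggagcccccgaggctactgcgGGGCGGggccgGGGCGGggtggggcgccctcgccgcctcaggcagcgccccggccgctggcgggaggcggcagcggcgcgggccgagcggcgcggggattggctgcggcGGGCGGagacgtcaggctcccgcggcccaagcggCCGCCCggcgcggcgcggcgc
FXYD5 promoter, GRCh38 chr19:35154485-35154734, plus strand: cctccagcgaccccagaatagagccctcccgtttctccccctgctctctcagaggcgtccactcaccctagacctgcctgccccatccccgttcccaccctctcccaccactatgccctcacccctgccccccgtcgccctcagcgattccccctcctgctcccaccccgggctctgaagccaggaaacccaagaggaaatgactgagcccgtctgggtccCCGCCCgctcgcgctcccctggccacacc
These stretches were 77.6% G or C for ATP1B1, 77.2% for ATP1B3 and 68% for FXYD5. Over the 300 bases that RefSeq's table gives for each start site (250 before and 50 after), ATP1B1 had 2 GC boxes, ATP1B3 had 4 and FXYD5 had 1, and 44.95% of 35116 promoters had at least 1. The full palindromic glucocorticoid receptor motif and a looser form, which contains it and frees some bases of each arm, were searched on both strands. None of the ATP1B1, ATP1B2, ATP1B3 and FXYD5 windows held either form. ATP1A1OS had no RefSeq promoter entry and was not searched. The looser form was in 0.390% of all promoters. A single arm of the motif, AGAACA, was found once, in the ATP1B3 window beyond the stretch printed, and in 14.8% of all promoters. These matches describe letters only. The ATP1B1 and ATP1B3 stretches lie inside the annotated spans of their genes, so start sites further upstream were not searched.

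ATP1B1 had 356.6 and 329 CPM in etoh replicates 1 and 2, from 3482 and 3913 reads. In dex it had 223 and 222 CPM, from 2195 and 2471 reads. Both dex libraries were below both etoh libraries, though 53.3% of tested genes also had groups that did not overlap. The dex values differed from each other by less than the etoh values did. The means were 343 ± 19.4 CPM in etoh and 223 ± 1.06 CPM in dex, a log2 fold change of -0.61 (SE 0.10, edgeR adjusted p = 1.1e-04). Dex thus held 0.657 times the etoh level, and 4.37% of the tested genes had a lower fold change. The call held with each library left out, with log2 fold changes from -0.67 to -0.53.

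All 5 transcript sequences of ATP1B1 were tested and all 5 fell, beside 5.64% of 49857 transcripts called in either direction and 2.07% called lower. ATP1B1-002, the longest form at 2608 bases, had 1314 and 1443 reads in etoh and 841 and 913 in dex, a log2 fold change of -0.60 (SE 0.11). ATP1B1-001, which encodes a coding sequence of the same length with shorter untranslated ends, had 659 and 775 reads in etoh and 447 and 509 in dex (-0.53, SE 0.12). The fold changes of the 5 forms lay between -0.69 for ATP1B1-202 and -0.53 for ATP1B1-001. The call of the short form ATP1B1-003, at -0.58 (SE 0.16), was lost with DESeq2, whose adjusted p was 0.41, and when dex replicate 2 or either etoh library was left out. ATP1B1-002 made up 37.3% of the gene's reads in etoh and 37.6% in dex, as means of the libraries. The transcripts are not independent: in the 3 forms found at the same length in GENCODE 29, 62.37% to 94.97% of all 36-base windows also occur in another form of the gene. In ATP1B1-002, 6.10% of windows occur on the opposite strand of another counted gene.

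ATP1B3, which encodes the beta-3 subunit (chromosome 3, 141876124 to 141926514, plus strand), had 213 and 201 CPM in etoh, from 2081 and 2389 reads. In dex it had 213 and 219 CPM, from 2096 and 2441 reads. Etoh replicate 1 and dex replicate 1 were within 0.2 CPM of each other, so the groups all but touched. The log2 fold change was 0.08 (SE 0.10, edgeR adjusted p = 0.68), with an approximate 95% interval from -0.11 to 0.27. A change of the size seen for ATP1B1 lies outside that interval.

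None of the 8 ATP1B3 transcripts was called by edgeR, DESeq2 or limma-voom, and 1 had an unadjusted p below 0.05 in edgeR. That one was ATP1B3-010, a short sequence of 421 bases, with 102 and 118 reads in etoh and 133 and 157 in dex (0.45, SE 0.16, edgeR adjusted p = 0.11). Of the 8 fold changes, 5 were above 0, and those of ATP1B3-001, ATP1B3-002 and ATP1B3-003 changed sign when single libraries were left out. The most abundant, ATP1B3-001 and ATP1B3-003, were at -0.01 (SE 0.12) and 0.05 (SE 0.12). In the 7 forms compared, 61.2% to 100% of windows occur in another ATP1B3 form, so the placing of reads among them is uncertain.

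**Figure D2:**
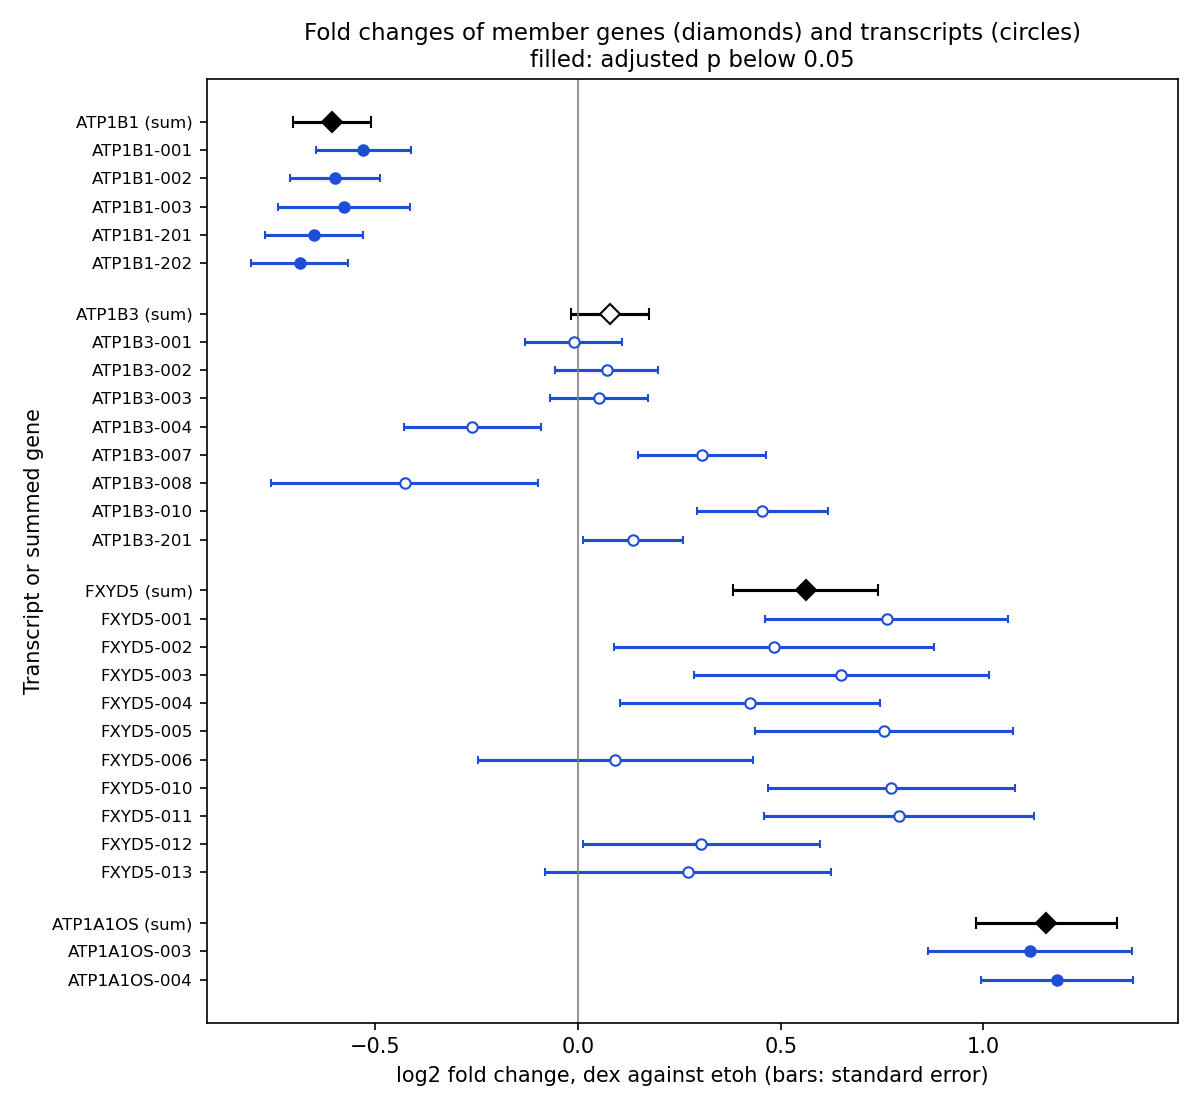
Log2 fold change of dex against etoh with its standard error for each tested gene (black diamonds, transcripts summed) and transcript (blue circles), filled where the adjusted p is below 0.05. The 5 ATP1B1 forms lie left of 0 and both tested ATP1A1OS forms near 1.1, the ATP1B3 forms scatter around 0, and the 10 FXYD5 forms lie right of 0 with wide bars.

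The order of the beta subunits per length turned with treatment. The scale is per kilobase of transcript. It compares genes only if each read was counted once: how a read that matches several forms was counted is unknown, and forms of both genes share most of their windows, so the levels and order between genes carry that limit. On this scale the level of ATP1B1 was 198 and 185 CPM per kb in etoh against 159 and 151 for ATP1B3. In dex ATP1B1 was at 125 and 124 CPM per kb and ATP1B3 at 164 and 166. ATP1B1 was thus the higher of the pair in both etoh libraries and the lower in both dex libraries. Its share of both genes' level, which was not a planned result, went from 55.3% ± 0.306 in etoh to 42.9% ± 0.406 in dex. The difference was -12.4 percentage points. Both SDs combined as the root of their summed squares gave 0.508, the spread for single libraries rather than for group means. The turn in order depended on how length was treated: with undivided reads the ATP1B1 share was 62.3% in etoh and 50.7% in dex, and with only the largest transcript of each gene it was 64.3% and 54.6%, so that ATP1B1 stayed the higher on both of these scales while its share dropped on all 3.

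**Figure D3:**
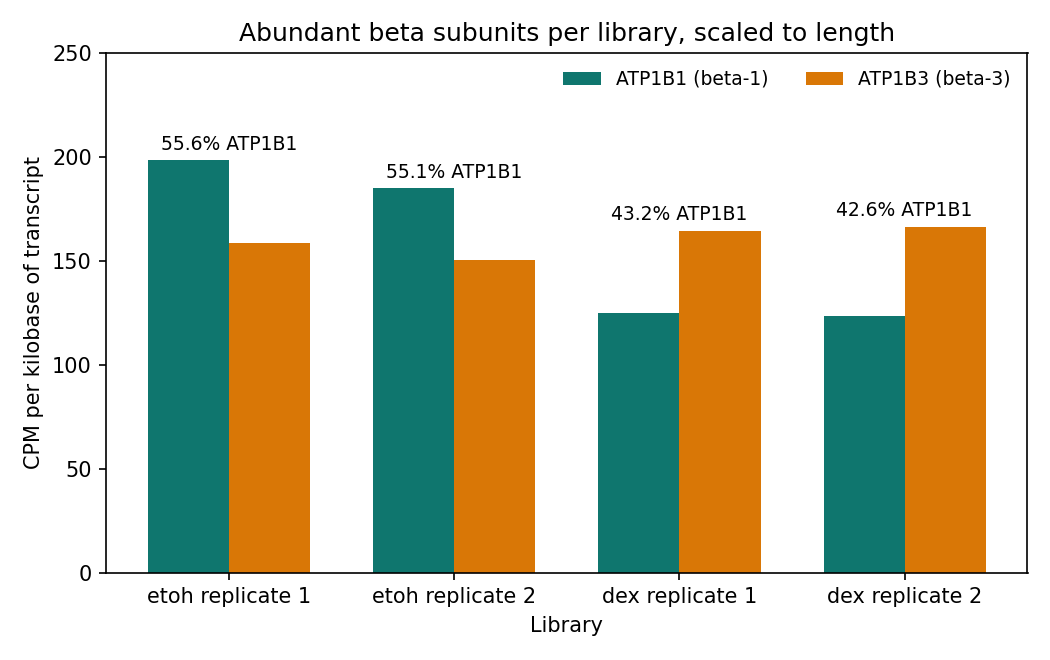
CPM per kilobase of ATP1B1 (green) and ATP1B3 (orange) in each library, with the ATP1B1 share of the pair above the bars. ATP1B1 is 55.1% and 55.6% of the pair in etoh and 42.6% and 43.2% in dex, and the ATP1B3 bars change little.

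ATP1B2 encodes the beta-2 subunit, known as an adhesion molecule of glia and abundant in brain. It lies on chromosome 17 from 7646627 to 7657768, plus strand. It had 3 and 6 reads in etoh and 1 and 4 in dex, so it was below the count filter. A count of 0 to 3 reads corresponds to at most 0.252 to 0.307 CPM at these depths, and ATP1B2 was at 0.307 and 0.505 CPM in etoh and 0.102 and 0.359 in dex. The ratio of dex to etoh was 0.574 with an exact 95% counting interval of 0.151 to 1.91, so no difference was detectable at this depth. Of the 14 reads, all but 2 were on ATP1B2-001.

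FXYD5, also called dysadherin, is a small membrane glycoprotein that associates with the pump and affects cell adhesion. It lies on chromosome 19 from 35154730 to 35169883, plus strand. It had 14.7 and 26.1 CPM in etoh, from 144 and 310 reads, and 31.5 and 28.5 CPM in dex, from 310 and 318 reads. Both dex libraries were above both etoh libraries, as 53.3% of tested genes also had groups that did not overlap. Etoh replicate 1 was low: a gap between etoh libraries as large as that of FXYD5 on the log2 scale was seen in 2.01% of tested genes. The log2 fold change was 0.56 (SE 0.18, edgeR adjusted p = 0.044).

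That call changed with the libraries and tools used. With etoh replicate 1 left out, the log2 fold change was 0.24 (edgeR adjusted p = 0.60), and without etoh replicate 2 it was 1.03. The call was also lost without dex replicate 1, where edgeR's adjusted p was 0.059, and with DESeq2, whose adjusted p was 0.17.

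Of 11 FXYD5 transcripts 10 were tested, and edgeR, DESeq2 and limma-voom called 0 of them, with 4 at an unadjusted p below 0.05 in edgeR. All 10 had a fold change above 0, from 0.09 for FXYD5-006 to 0.79 for FXYD5-011. That count did not hold with etoh replicate 1 left out, where FXYD5-002 was at -0.13, FXYD5-006 at -0.30 and FXYD5-013 at -0.25. FXYD5-006 was also at -0.24 without dex replicate 2, and FXYD5-013 at -0.016 without dex replicate 1. FXYD5-001, which has the longest sequence at 1580 bases, had 16 and 32 reads in etoh and 33 and 45 in dex (0.76, SE 0.30, edgeR adjusted p = 0.16). The forms share 33.5% to 99.8% of their windows with each other and none with another counted gene.

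ATP1A1OS lies on chromosome 1 from 116392247 to 116418622, minus strand, and overlaps 2 other annotated genes, 1 of them on the opposite strand. It had 9.52 and 7.99 CPM in etoh, from 93 and 95 reads, and 20.7 and 17.8 CPM in dex, from 203 and 198 reads. Both dex libraries were above both etoh libraries, though 53.3% of tested genes also had groups that did not overlap. The means were 8.76 ± 1.08 CPM in etoh and 19.2 ± 2.04 CPM in dex, a log2 fold change of 1.16 (SE 0.17, edgeR adjusted p = 5.6e-05). This was the largest fold change among the 4 tested members, and 97.7% of tested genes had a lower one. Each library could be left out with the call kept, at fold changes from 1.02 to 1.30.

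Nearly all ATP1A1OS reads fell on ATP1A1OS-004 and ATP1A1OS-003. ATP1A1OS-004 had 64 and 63 reads in etoh and 142 and 135 in dex (1.18, SE 0.19), and ATP1A1OS-003 had 29 and 30 in etoh and 61 and 62 in dex (1.11, SE 0.25). Both were called by edgeR, beside 3.57% of all tested transcripts called higher, and DESeq2 called 1 of them, ATP1A1OS-004. ATP1A1OS-001 had 2 reads in all, both in etoh replicate 2, and ATP1A1OS-002 had 1, in dex replicate 2. The sequences differ in overlap: 15.5% of the windows of ATP1A1OS-004 and 20.5% of those of ATP1A1OS-003 are the opposite strand of another counted gene, and none of those of ATP1A1OS-001 and ATP1A1OS-002 are. No source used here gives the strand setting, so reads of ATP1A1OS and of the gene it overlaps cannot be told apart in those windows, and their part in the rise was not tested. In ATP1A1OS-004, 63.3% of windows occur in no other counted transcript on either strand.

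**Figure D4:**
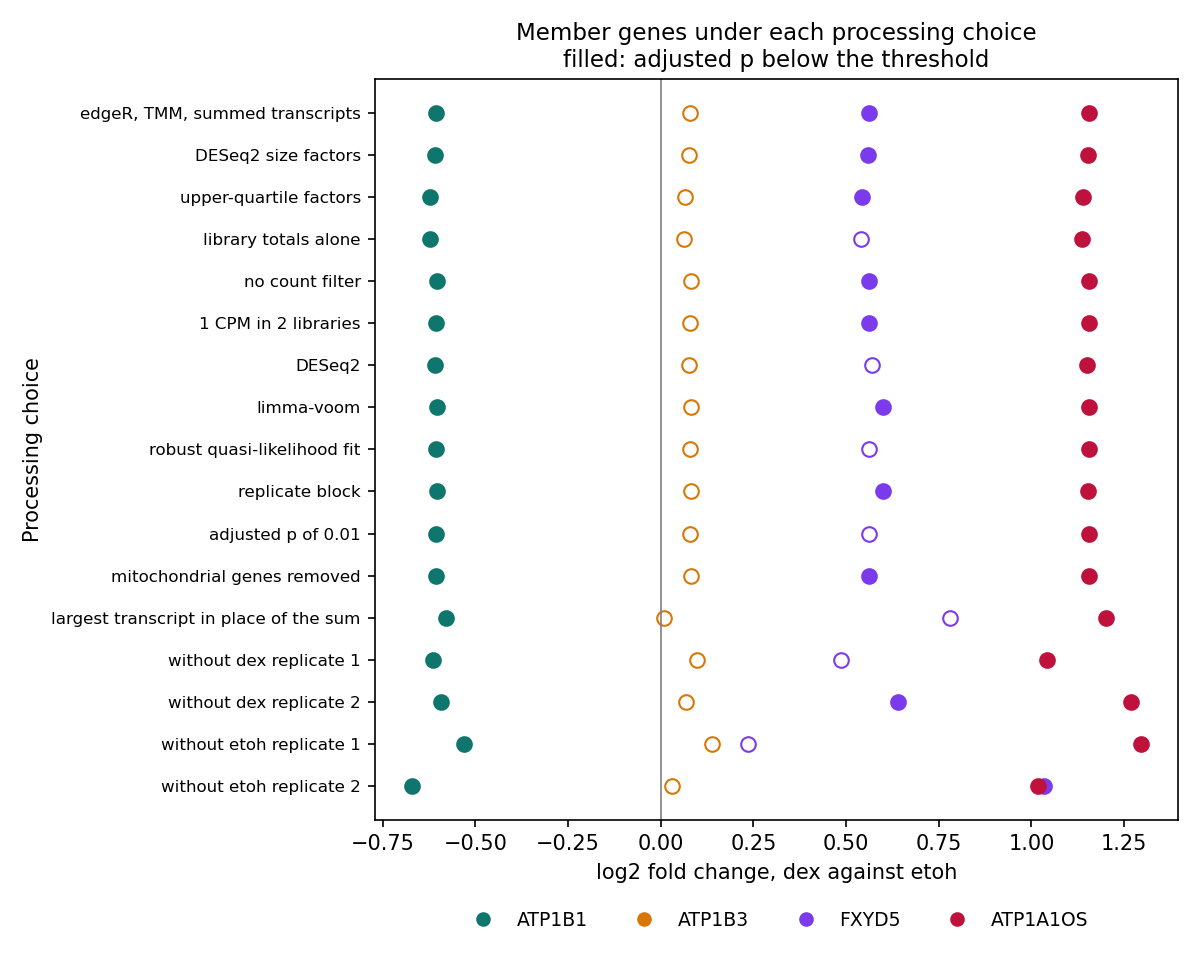
Log2 fold change of the 4 tested members (colours) under edgeR with TMM and each processing alternative (rows), filled where the adjusted p is below that row's threshold. ATP1B1 and ATP1A1OS are filled in every row, ATP1B3 in none, and FXYD5 is open in 7 rows and lies at 0.24 without etoh replicate 1.

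Members differed in level over a wide range. Per kilobase, with the same limit, the order in etoh was ATP1B1 (192 ± 9.47), ATP1B3 (155 ± 5.73), FXYD5 (22.8 ± 8.81), ATP1A1OS (9.24 ± 1.07) and ATP1B2 (0.250 ± 0.216). In dex ATP1B3 (165 ± 1.37) came before ATP1B1 (124 ± 1.03), followed by FXYD5 (33.4 ± 2.84), ATP1A1OS (20.1 ± 2.01) and ATP1B2 (0.0731 ± 0.0577). No neighbours in either order overlapped between libraries. A test of each transcript against the others of its gene found none of the members' transcripts changed in usage. That test called 0 of 45754 transcripts in all with edgeR, the only tool used for it, with 1190 (2.60%) at an unadjusted p below 0.05. The placing of reads among forms that share windows is uncertain, so this does not show that usage stayed the same.

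Genes with the pattern most like each member were sought among 13047 tested genes averaging 1 CPM or more. The measure was the root mean square difference of log2(CPM + 0.5), centred on each gene's mean, over the 4 libraries. For ATP1B1 the nearest were SOX9 (a difference of 0.0064), RBMS2 (0.0089) and NRIP1 (0.018). For ATP1A1OS they were CSRNP1 (0.040), NEURL1B (0.056) and LIPE-AS1 (0.058). For FXYD5 they were MGAT3 (0.057), FGF11 (0.058) and STEAP3-AS1 (0.059), each at under 2.5 CPM in every library, and for ATP1B3 they were MCRS1, SCFD2 and NIN. With so few libraries many genes share a pattern closely, so the likeness is a description.

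Of 23 genes on the family list, members included, 6 had no reads and 8 were tested, of which 3 were called higher and 1 lower, against 11.4% of all tested genes called. The median log2 fold change of the 8 was 0.00054, and that of all tested genes -0.0026. The called genes include the members ATP1B1, ATP1A1OS and FXYD5. The gene lists here and below were also chosen with earlier results of these data known. FXYD2, the gamma subunit of kidney, had 2.97 and 4.54 CPM in etoh and 2.44 and 4.04 in dex (-0.20, SE 0.31). NKAIN4, a protein that interacts with beta-1, was at -0.14 (SE 0.39). Neither was called, and for each the etoh and dex libraries overlapped.

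Other P-type ATPases use the same kind of phosphorylated intermediate to move other substrates. Among 11 tested genes of this list, 1 rose and 2 fell (27.3% called, against 11.4% of all tested genes). The median log2 fold change of the 11 was 0.01. ATP2B1, a calcium pump of the plasma membrane, fell from 250.2 ± 7.66 CPM in etoh to 171 ± 15.1 in dex (-0.53, SE 0.10). ATP2B4, another plasma membrane calcium pump, rose from 49.1 ± 5.97 to 68.8 ± 2.29 CPM (0.50, SE 0.12), and its call was lost without etoh replicate 2, at 0.37, and when its largest transcript stood for the gene, at 0.43. ATP13A3, a polyamine transporter, fell from 357 ± 8.07 to 234 ± 9.14 CPM (-0.59, SE 0.09). ATP2A2, the calcium pump of the endoplasmic reticulum, was the most abundant of the list and was at -0.12 (SE 0.10), not called.

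Sodium that the pump exports enters through channels, exchangers and cotransporters. Of 15 tested gene identifiers of sodium entry, 2 rose and 1 fell (20% called, against 11.4% of all tested genes). The median log2 fold change of the 15 was -0.10. The 20 symbols of that list match 21 gene identifiers, so a symbol tested under more than 1 identifier counts more than once. SCNN1A, the alpha subunit of the epithelial sodium channel, rose from 7.27 ± 1.74 to 20.2 ± 0.639 CPM (1.48, SE 0.18). SLC4A7, a sodium bicarbonate cotransporter, fell from 186 ± 12.1 to 132 ± 1.15 CPM (-0.48, SE 0.10). The number called was 5 without dex replicate 2 and 5 without etoh replicate 2.

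Of 13 tested regulators and anchors of the pump and of sodium transport, 4 rose and 0 fell (30.8% called). Of all tested genes, 11.4% were called and 6.98% were called higher. The median log2 fold change of the 13 was 0.17. SGK1, a hormone-induced kinase that raises sodium transport, rose from 84.4 ± 6.52 to 224 ± 18.0 CPM (1.43, SE 0.10). SIK1, a salt-inducible kinase, rose from 459 ± 93.0 to 824 ± 65.9 CPM (0.86, SE 0.11). NEDD4, a ubiquitin ligase, rose from 294 ± 10.1 to 494 ± 38.8 CPM (0.76, SE 0.10), whereas its relative NEDD4L was at -0.04 (SE 0.12). HSD11B2, which inactivates cortisol, had 3 and 5 reads in etoh and 16 and 11 in dex (1.79, SE 0.56), and its call was lost when any 1 of the 4 libraries was left out, with fold changes from 1.41 to 2.13. The ankyrin gene ANK3, whose protein anchors the pump, was at 0.27 (SE 0.13) and was not called.

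Potassium channels return the potassium that the pump brings in. Of 8 tested, KCNJ16 rose from 3.55 ± 0.0955 to 8.43 ± 0.267 CPM (1.26, SE 0.23). KCNJ2 fell from 16.4 ± 5.80 to 9.99 ± 0.411 CPM (-0.68, SE 0.21). That made 25% called, against 11.4% of all tested genes, with a median log2 fold change of -0.08. KCNJ2 was not called without etoh replicate 1, at -0.27, nor by DESeq2 or limma-voom. KCNJ16 was not called when its largest transcript stood for the gene, at 0.96.

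**Figure D5:**
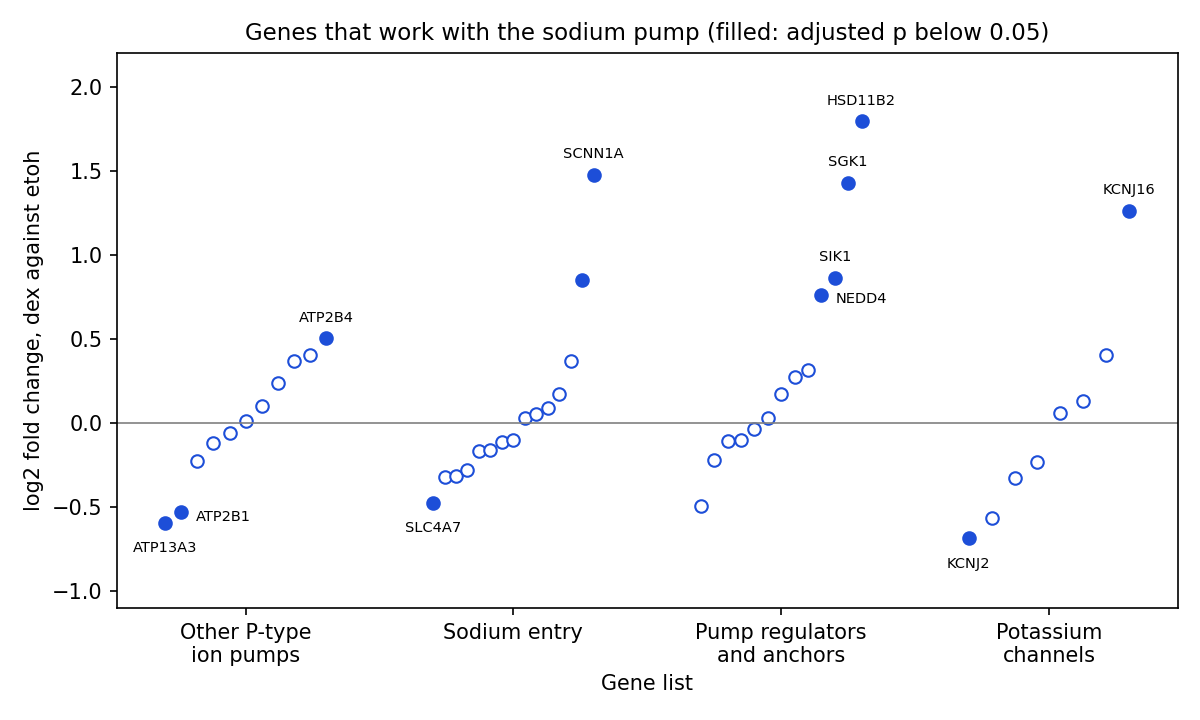
Log2 fold change of dex against etoh for each tested gene of 4 lists, ordered within each list, filled where the adjusted p is below 0.05, with the called genes described in the text named. The called genes are 3 of 11 other P-type pumps and 3 of 15 sodium entry gene identifiers. Of the other lists, 4 of 13 regulators and anchors and 2 of 8 potassium channels were called, against 11.4% of all tested genes.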

How the data were processed

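Reads of 4 libraries were listed against transcript sequences in 1 deposited file each. The authors' values are raw read counts per transcript, and the other columns hold the transcript's length and the unaligned reads. CASAVA, Bowtie, SAMtools and DESeq2 are the tools named, per the submitters' processing notes. Their settings, the genome build, annotation and strand are not given in those sources. Unaligned reads (17.2% to 18.7%) stayed out of library sizes.

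Counts were summed per gene identifier, scaled to aligned totals, filtered with filterByExpr (minimum count 10), normalized by TMM and tested with edgeR 4.0.16 in R 4.3.3. The SE is the absolute log2 fold change over the square root of the F statistic. Transcripts were tested likewise, and their usage with diffSpliceDGE. The code was tested on simulated data. Alternatives used limma 3.58.1 and DESeq2 1.42.0. No pair of libraries was a duplicate: a chi-square test of gene counts gave, per degree of freedom, 5.81 for the dex pair, 7.60 for the etoh pair and at least 16.7 across groups. Positions come from GENCODE 29 on GRCh38, and promoters from RefSeq on GRCh38. Reads carry no molecular identifiers, so intervals and floors hold for counting error alone.

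Members, gene lists and tests were chosen with earlier results of these data known. Named genes were all members, up to 4 called genes per list by smallest p-value (otherwise 2 abundant ones), FKBP5, TSC22D3 and PER1, and the 3 nearest genes of each tested member. FXYD2, NKAIN4, ATP2A2, NEDD4L and ANK3 were added after their values were seen. List counts include genes not reported here. PECAM1 was not analysed here.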

Additional observations from a re-analysis of the deposited data

How the results depend on the processing

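ATP1B1 and ATP1A1OS kept their direction and call, and ATP1B3 stayed uncalled, under all 16 alternatives, with ATP1B3 at adjusted p-values from 0.66 to 0.98. The call of FXYD5 (0.56) was lost with library totals (0.54), DESeq2 (0.57) and a robust fit (0.56). It was also lost at an adjusted p of 0.01 (0.56) and with the largest transcript (0.78). Leaving out 1 library gave 0.24 to 1.03 for FXYD5. With all 4 libraries the adjusted p of FXYD5 ranged from 0.0030 in edgeR without the count filter to 0.17 in DESeq2. The cause of this spread was not tested. Genes called (1684; 1031 higher, 653 lower) were 999 (633 and 366) with DESeq2 and 995 (629 and 366) at an adjusted p of 0.01. The 2811 transcripts called were 1213 with DESeq2 and 1656 at 0.01. Leaving out 1 library gave 1111 to 1965 genes, 705 to 1159 higher and 406 to 806 lower, with 418 lower without dex replicate 1 and 406 without etoh replicate 1. It also gave 1819 to 3393 transcripts, fewest without etoh replicate 1, 0 to 2 with changed usage, 3 to 5 sodium entry genes and 1 to 3 potassium channels. Without the count filter 3 transcripts changed usage. Potassium channels called were 1 with DESeq2, limma-voom, an adjusted p of 0.01 and the largest transcript. The drop of 12.4 points in the ATP1B1 share was -11.6 without length scaling and -9.73 with the largest transcripts, both chosen after seeing the data. It was -12.7 to -12.2 without each library. The share itself and the runs without each library were not planned either. For member transcripts, 358 values under alternatives kept direction and call, 6 lost the call, 2 gained it and 9 changed sign without a call. Those 9 came from leaving out 1 library, which gave -0.082 to 0.054 for ATP1B3-001, -0.020 to 0.16 for ATP1B3-002, -0.038 to 0.14 for ATP1B3-003, -0.13 to 1.91 for FXYD5-002, -0.30 to 0.74 for FXYD5-006 and -0.25 to 1.31 for FXYD5-013.

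With the replicate number as a block, 1558 genes were called and no member's call changed. Deviations of same-numbered libraries had a correlation of -0.28 over 9283 genes, and the crossed pairing, added after seeing the data, called 2710 genes (1172 lower), 5142 transcripts, 5 with changed usage and 5 sodium entry genes. ATP1B2, with 14 reads in all, was too shallow to test.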
